A study of Mus musculus with 6 samples.

Results

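Heparan sulfate is a sulfated sugar chain carried by proteins of the cell surface and the extracellular matrix. The enzymes that build and sulfate it were followed here in mouse bone marrow progenitors with active Notch2 signalling. The gene list held 10 members, namely Ext1, Ext2, Ndst1, Ndst2, Glce, Hs2st1, Hs6st1, Hs6st2, Hs3st1 and Hs3st3b1. Members were all probe sets whose annotated symbol was exactly one of these names, which gave 23 of 45101 probe sets on the array, for 9 of the 10 genes (and of 18194 genes with a probe set of their own). Ndst1 was not analysed here. The group was put together with the difference between the genotypes in view, led by the high value of Hs6st2. Values of the members on this contrast, and counts of calls among them, are therefore a description and support nothing.

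The samples were 6 arrays of sorted bone marrow cells that were cKit+ and negative for lineage markers and Sca1. ICN2 negative mice (3 arrays, all female) carried Mx1-cre+ alone, and ICN2 positive mice (3 arrays, all male) carried Rosa-lsl-ICN2 Mx1-cre+. In the ICN2 positive genotype, Cre recombinase opens a Rosa26 transgene for the intracellular, constantly active part of Notch2. All mice were 6 weeks old and were given polyIC on 3 occasions, each time 20 mcg per g, and cells were taken 1 week after the last dose. PolyIC induces interferon, which drives the Mx1 promoter in blood cells and in other tissues, so the transgene is not restricted to these progenitors. Each genotype was of a single sex, so effects of genotype and of sex cannot be told apart. The labels do not say whether replicates came from separate animals, so p-values reflect no more than how these samples vary, which could be technical variation.

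Precision is limited by having 3 arrays per group. The median log2 intensity of the arrays lay between 6.05 and 6.09. ICN2 positive replicate 1 stood apart, correlating with the other arrays of its group at 0.966 and 0.974 over the probe sets tested. Kit, the receptor used in the sort, lay between 10.38 and 10.50 in ICN2 negative and between 10.15 and 10.86 in ICN2 positive arrays. Of 7 lineage marker genes listed, Itgam was under the 40th percentile of intensity on all 6 arrays, Cd3e, Cd4 and Cd8a passed the filter with none called, and 3 were not analysed here. None of the 3 differed past the threshold in limma, although Cd3e had 1.35 ± 0.42 (log2 difference ± SE, adjusted p = 0.116). Of the 3, 2 had an unadjusted p under 0.05, with 1 higher and 1 lower in ICN2 positive cells. At that unadjusted p, 14.4% of all probe sets tested were higher and 9.90% lower. In bulk samples, fewer cells of a type and less RNA per cell cannot be told apart.

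A heparan sulfate chain is started on a core protein by a short linkage sugar, after which the exostosins Ext1 and Ext2 lengthen it as a complex in the Golgi. Ndst enzymes then replace acetyl by sulfate groups on the amino sugar, the epimerase Glce turns glucuronic into iduronic acid, and the sulfotransferases add sulfate at the 2-O, 6-O and 3-O positions. The pattern of sulfation decides which growth factors, chemokines and proteases the chain binds. In blood-forming tissue the chains are known for holding cytokines in the niche, and mast cells make the highly sulfated form heparin, which needs Ndst2.

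The 6-O-sulfotransferases Hs6st1 and Hs6st2 catalyse the same step, with differences between the genotypes of -0.10 and 5.40 on the log2 scale. Their promoter windows are therefore shown, from RefSeq on GRCm38.p6, with 250 bases before and 50 after each transcript start. They are written 5′ to 3′ on the strand of the gene, with each match to the TATA box motif TATAAA on either strand in capitals, and likewise each match to the GC box motif GGGCGG. Hs6st1 has a single window at chr1:36068150-36068449 on the plus strand. Hs6st2 has a window at chrX:51681553-51681852 for its upstream start and another at chrX:51680428-51680727 for its downstream start, both on the minus strand. Upstream and downstream here compare only these windows. The annotated gene reaches to chrX:51681705, which is further upstream than the start of either window.
Hs6st1: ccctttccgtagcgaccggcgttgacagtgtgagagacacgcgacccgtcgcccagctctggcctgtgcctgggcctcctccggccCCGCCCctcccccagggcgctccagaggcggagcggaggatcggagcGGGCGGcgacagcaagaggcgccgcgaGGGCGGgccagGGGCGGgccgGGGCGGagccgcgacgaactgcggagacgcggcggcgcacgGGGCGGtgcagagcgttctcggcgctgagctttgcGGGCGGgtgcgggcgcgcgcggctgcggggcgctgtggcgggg
Hs6st2 upstream start: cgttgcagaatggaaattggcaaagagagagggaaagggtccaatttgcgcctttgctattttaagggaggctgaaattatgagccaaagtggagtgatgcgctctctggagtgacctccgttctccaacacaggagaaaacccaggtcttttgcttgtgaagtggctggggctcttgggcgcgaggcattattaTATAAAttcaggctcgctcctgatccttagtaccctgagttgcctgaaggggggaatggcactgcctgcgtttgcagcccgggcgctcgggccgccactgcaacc
Hs6st2 downstream start: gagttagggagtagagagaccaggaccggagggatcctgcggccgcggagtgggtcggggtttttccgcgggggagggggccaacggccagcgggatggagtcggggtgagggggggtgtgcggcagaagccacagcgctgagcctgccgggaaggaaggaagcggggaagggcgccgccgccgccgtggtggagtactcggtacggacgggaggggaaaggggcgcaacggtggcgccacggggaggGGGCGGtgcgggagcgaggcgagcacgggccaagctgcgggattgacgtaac

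The Hs6st1 window had a GC content of 78.0% and 7 GC box matches, which did not overlap, and no TATA box. The upstream Hs6st2 window had a GC content of 53.7%, against a median of 52.7% over all 32851 promoter windows of the same length. It held a TATA box that began 55 bases before the transcript start of this window, and no GC box. That TATA box lies inside the annotated gene. The downstream Hs6st2 window was GC-rich again, at 71.7%, with 1 GC box match. Of the 9 windows of 8 member genes in the table, the upstream Hs6st2 window was the only one with TATAAA (or its reverse complement TTTATA), which occurs in 13.6% of all windows. GGGCGG or CCGCCC occurred in 6 of the 9 member windows and in 35.7% of all windows. TGGGAA or TTCCCA, the core letters bound by RBPJ, the DNA-binding partner of Notch, occurred in none of the 9 and in 25.6% of all windows. A match or its absence describes only these letters in these windows. The array does not show which start is used.

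A probe set entered the fit where it lay above the 40th percentile of its array on at least 3 of 6 arrays, a limit near 5.3 on the log2 scale. Of the 23 member probe sets, 13 passed, for 8 genes. The other 10 stayed below, among them the single Hs3st1 probe set. In limma over 27424 probe sets, 3 of the 13 lay past an adjusted p of 0.05, all higher in ICN2 positive cells, against 2.65% of all probe sets in either direction and 1.67% higher. These were a pair of Hs6st2 probe sets and 1 of Ext1. None was called lower, and at an unadjusted p under 0.05 the counts were 4 higher and 1 lower, against 14.4% and 9.90% of all probe sets. The call of the brighter Hs6st2 probe set was kept on leaving out each array in turn. The dimmer one passed the filter only through its ICN2 positive arrays. It stayed called without ICN2 positive replicate 1 and lost its call without each of the other arrays, with no filter, after a second quantile normalization and on a log2(value + 16) scale, and a filter at the 60th percentile left it untested. Ext1 was not called once any array was left out. Since the members were chosen on this contrast, nothing is read from these counts.

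**Figure D1:**
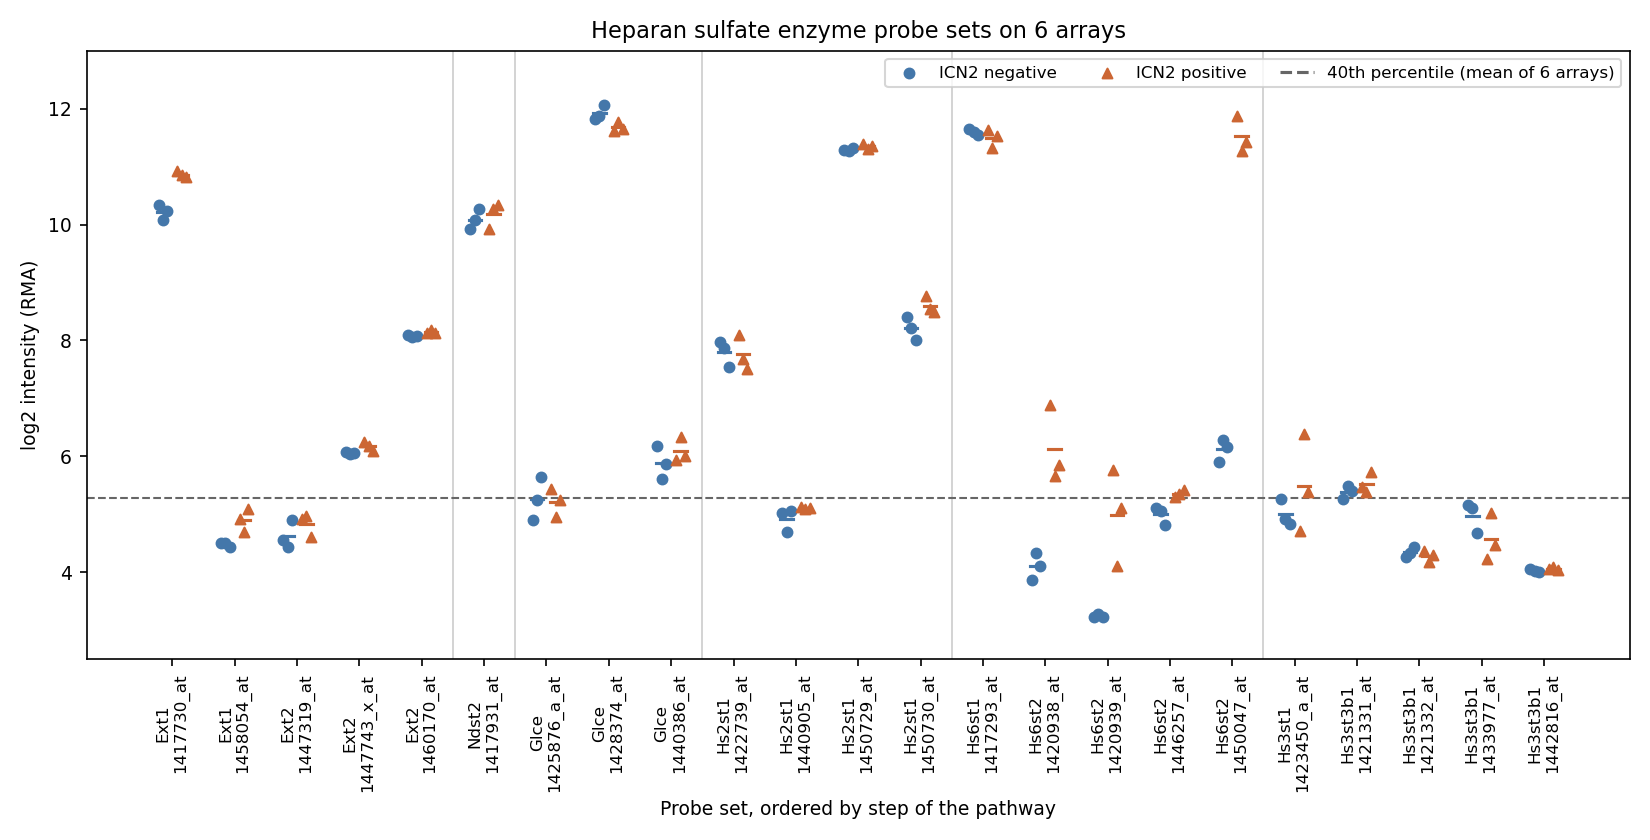
Log2 intensity of the 23 member probe sets on each of 6 arrays, ordered by step of the pathway, with circles for 3 ICN2 negative and triangles for 3 ICN2 positive arrays, bars for group means and a dashed line at the 40th percentile of intensity. The ICN2 positive triangles of Hs6st2 1450047_at lie between 11.28 and 11.87, above circles between 5.91 and 6.28, and intensities are comparable within a probe set, not between probe sets.

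Hs6st2 adds sulfate at the 6-O position of the glucosamine units. Its brightest probe set, 1450047_at, read 5.91, 6.28 and 6.17 (log2 intensity) in the ICN2 negative arrays and 11.87, 11.28 and 11.42 in the ICN2 positive arrays. The groups were far apart, with little spread among the arrays of each. The difference was 5.40 ± 0.18 (log2, ICN2 positive minus ICN2 negative, ± SE of the fit, n = 3 per group), which is 42.2-fold, and 5.23 without ICN2 positive replicate 1. It ranked 11th of the 27424 probe sets by signed difference. The ICN2 negative values lay above the 40th percentile on all 3 arrays.

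The other Hs6st2 probe sets gave smaller differences in the same direction. Probe set 1420938_at read 3.88, 4.33 and 4.10 in ICN2 negative and 6.89, 5.66 and 5.86 in ICN2 positive arrays. Its ICN2 negative arrays were all under the 40th percentile, so it entered the fit only through the group in which it is high. The fitted log2 difference was 2.03 ± 0.34, with 1.65 without ICN2 positive replicate 1 and 1.39 on the log2(value + 16) scale. Set against the 40th percentile, all 6 arrays gave a rise of at least 1.80-fold. Probe set 1420939_at read 3.22, 3.27 and 3.22 against 5.77, 4.11 and 5.11, with only ICN2 positive replicate 1 above the percentile. Probe set 1446257_at read 5.11, 5.06 and 4.82 against 5.30, 5.35 and 5.42, with a difference of 0.36. In all 4 probe sets the 3 ICN2 positive values lay above the 3 ICN2 negative values. Of the 4, 3 were listed with the same source sequence in the annotation, so they are not independent readings, and their differences of 1.76, 2.03 and 5.40 lie far apart.

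Hs6st1 is the paralog with the same reaction. Its single probe set read 11.65, 11.60 and 11.55 in ICN2 negative and 11.63, 11.32 and 11.53 in ICN2 positive arrays. The groups overlapped, with a difference of -0.10 ± 0.10 (log2), and -0.17 without ICN2 positive replicate 1. The third gene of the family, Hs6st3, differed by -0.11 ± 0.08 (adjusted p = 0.42 in limma) and lay close to the filter limit, with 2 ICN2 negative arrays and 1 ICN2 positive array above it.

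**Figure D2:**
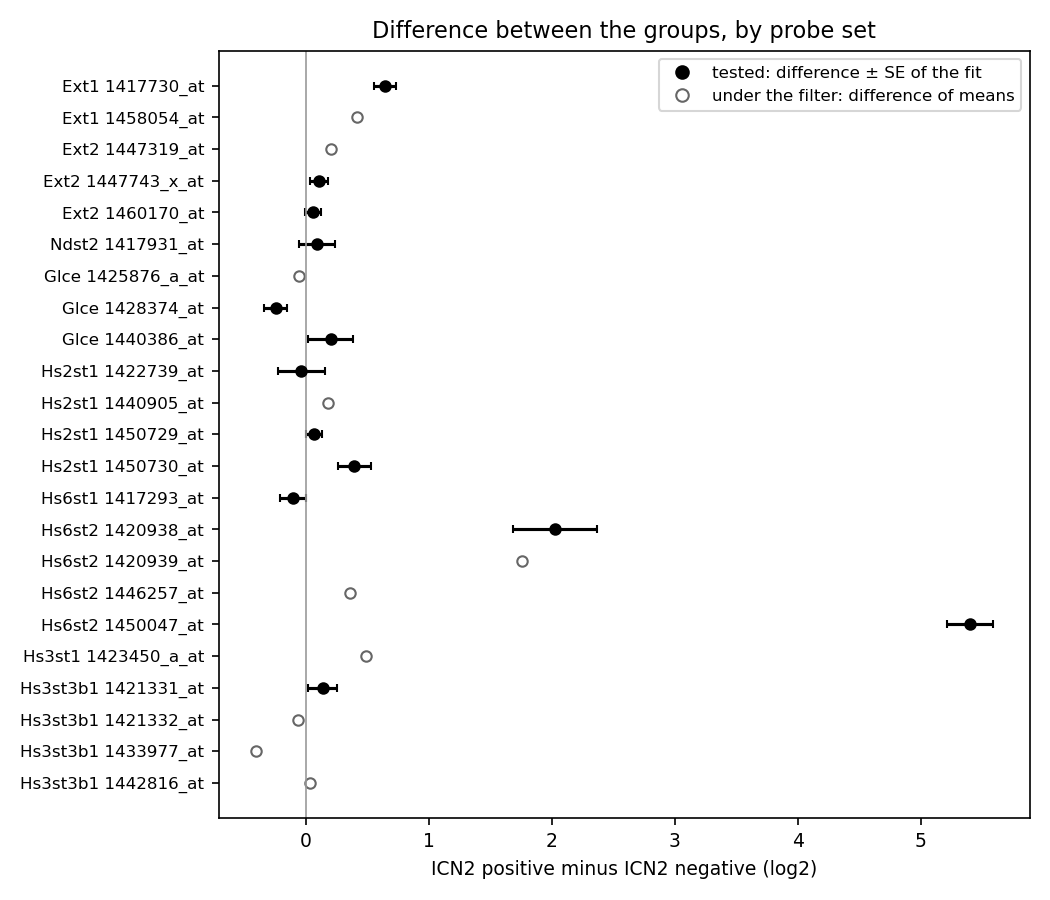
Difference between the groups (ICN2 positive minus ICN2 negative, log2) for each member probe set, with filled points and bars for the fitted difference ± SE of the 13 probe sets tested and open points for the difference of means of the 10 under the filter. The Hs6st2 point at 5.40 lies far to the right, and 10 of the 13 tested probe sets lie within 0.5 of 0.

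Ext1 and Ext2 are the paired glycosyltransferases that extend the chain. Ext1, read by 1417730_at, lay at 10.33, 10.08 and 10.24 in ICN2 negative and at 10.92, 10.85 and 10.82 in ICN2 positive arrays. All ICN2 positive arrays were higher, by 0.65 ± 0.09 on the log2 scale or 1.56-fold. The other Ext1 probe set, 1458054_at, was under the percentile on all 6 arrays and differed by 0.41. The brightest Ext2 probe set, 1460170_at, read 8.10, 8.06 and 8.08 against 8.13, 8.18 and 8.12. Its groups did not overlap but its difference was only 0.06 ± 0.07, or 1.04-fold. The Ext2 probe set 1447743_x_at differed by 0.11 ± 0.07, and 1447319_at, under the percentile, by 0.21.

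Ndst2, an N-deacetylase and N-sulfotransferase, is the enzyme that mast cells need for heparin. It read 9.93, 10.08 and 10.26 in ICN2 negative and 9.93, 10.27 and 10.34 in ICN2 positive arrays, a difference of 0.09 ± 0.15. The groups overlapped, and the ICN2 positive arrays parted into a lower replicate 1 and higher replicates 2 and 3. The difference without replicate 1 was 0.22. For mast cell and basophil markers, each gene's log2 value was set against its own ICN2 negative mean. The median over 9 tested markers lay between -0.07 and 0.06 in ICN2 negative arrays and at -1.64, 0.70 and 0.25 in ICN2 positive replicates 1, 2 and 3. Of these 9, Mcpt4, a mast cell protease, was at least 7.05-fold higher (adjusted p = 0.0183 in limma) and 8 were not called. All ICN2 negative arrays of Mcpt4 were under the 40th percentile, so it entered the fit only through the group in which it is high. At an unadjusted p under 0.05 in limma, 2 of the 9 were higher and none lower, against 14.4% and 9.90% of all probe sets tested. Tpsab1, a tryptase gene, was under the filter, while Tpsb2, another tryptase gene, lay between 5.70 and 5.87 on all arrays. The carboxypeptidase gene Cpa3 lay between 9.90 and 11.96 on all arrays. The part of these markers in the values of the enzymes was not tested.

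Glce, the epimerase that makes the chain flexible, was read by 3 probe sets. The brightest, 1428374_at, read 11.83, 11.87 and 12.06 in ICN2 negative and 11.62, 11.76 and 11.64 in ICN2 positive arrays. It was the only tested member whose ICN2 positive arrays all lay below the ICN2 negative ones, by -0.24 ± 0.09 (0.845 of the ICN2 negative level). Probe set 1440386_at went the other way, with 0.21 ± 0.18 and overlapping groups, and 1425876_a_at was under the filter with -0.05. The estimates of the tested Glce probe sets thus differed in sign, but that of 1440386_at was close to its SE, so an opposite direction is not shown.

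Hs2st1, the only 2-O-sulfotransferase of heparan sulfate, was read by 4 probe sets, of which 3 shared a source sequence. The brightest, 1450729_at, read 11.28, 11.26 and 11.32 against 11.40, 11.31 and 11.36, a difference of 0.07 ± 0.07 with overlapping groups. Probe set 1450730_at read 8.40, 8.22 and 8.01 against 8.77, 8.54 and 8.50, with 0.39 ± 0.13 and no overlap. Probe set 1422739_at overlapped at -0.04 ± 0.19, and 1440905_at, under the filter on all arrays, differed by 0.19.

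The 3-O-sulfotransferases make rare modifications, among them the antithrombin-binding site that Hs3st1 is known for. Hs3st1 read 5.27, 4.93 and 4.83 in ICN2 negative and 4.71, 6.39 and 5.39 in ICN2 positive arrays. It was above the 40th percentile only in ICN2 positive replicates 2 and 3, and the groups overlapped. Its difference of 0.49 became 0.88 without ICN2 positive replicate 1 and 0.04 without replicate 2. Hs3st3b1 was read by 4 probe sets, of which only 1421331_at entered the fit, at 5.27, 5.50 and 5.41 against 5.47, 5.39 and 5.73. That difference was 0.14 ± 0.12, and the other 3, all under the percentile on every array, differed by -0.41 to 0.03.

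Across the 13 tested probe sets, 10 had a difference above 0 and 3 below, and 10 (76.9%) differed by less than 0.5 on the log2 scale, against 83.3% of all probe sets tested. The median difference was 0.11, against 0.03 over all probe sets. The groups did not overlap in 7 of the 13, with ICN2 positive arrays above in 6 and below in 1. Over all probe sets 33.7% did not overlap, 19.7% higher and 14.0% lower. The median standard deviation within groups was 0.15 for the members and 0.17 for all probe sets. The median deviation of the 13 from their ICN2 negative means was 0.11, 0.12 and 0.12 in ICN2 positive replicates 1, 2 and 3. The array that stood apart over all probe sets thus lay beside the other two in the median of these enzymes.

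Hs6st2 lies on the X chromosome, so other X-linked genes are given beside it. Of 377 X-linked genes tested, 11 were higher and 10 lower in ICN2 positive cells (adjusted p under 0.05 in limma over 12837 genes), against 4.36% of all genes in either direction, 2.59% higher and 1.78% lower. The median difference was -0.02 for X-linked genes and 0.02 for all genes. Hs6st2 had the highest difference of the 377 and the 8th highest of all genes. Xist, which is transcribed from the inactive X chromosome of females, fell by 6.30 ± 0.21 in log2 level (adjusted p = 5.09e-04), as the labelled sexes have it. The part of sex in the Hs6st2 value cannot be told apart from that of the genotype.

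The genes whose profile was most like that of Hs6st2 were found by the root mean square difference over 6 arrays, after each profile's own mean was subtracted. Col18a1, a basement membrane collagen that carries heparan sulfate, was nearest, at 0.32 log2 units. The Y-linked demethylase gene Kdm5d followed at 0.42, the mast cell protease gene Mcpt2 at 0.48, the basement membrane gene Nid1 at 0.50 and the granule protease gene Gzmb at 0.53. All 5 differed by between 4.84 and 6.06 between the groups, so the measure finds above all genes with a difference of like size. With a Y-linked gene among the 5, it does not tell genotype from sex.

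**Figure D3:**
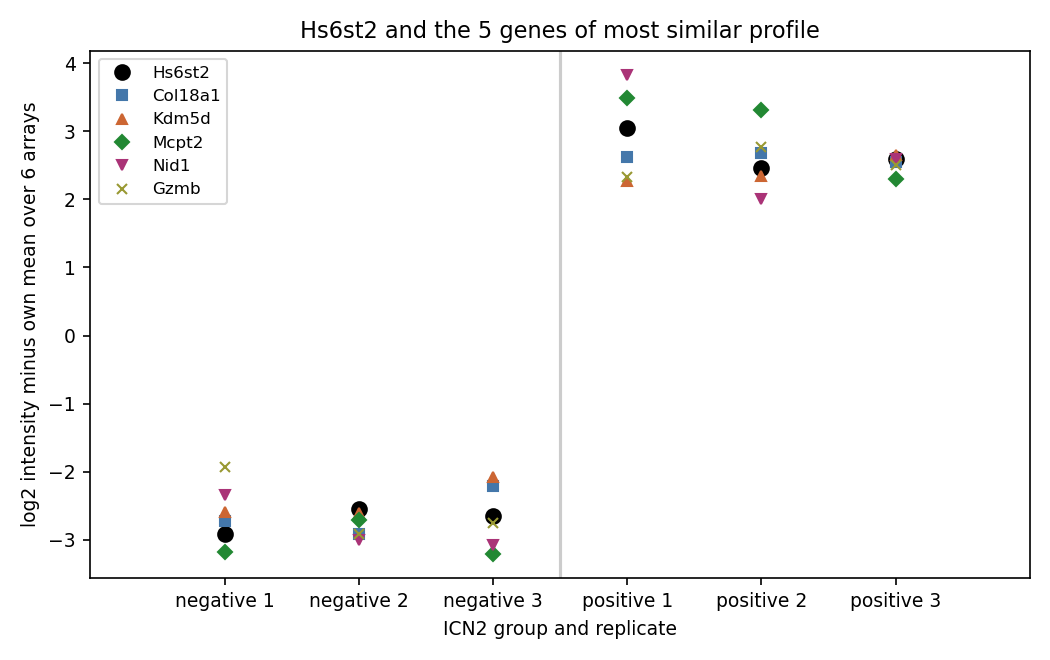
Log2 intensity minus the gene's own mean over 6 arrays, for Hs6st2 and the 5 genes of most similar profile, with 1 column per array and 1 symbol per gene. The 6 genes lie together below 0 in the ICN2 negative arrays and above 0 in the ICN2 positive arrays, with Col18a1 nearest to Hs6st2 at a root mean square difference of 0.32.

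The surrounding pathway was read from lists of genes that are not members. A gene was represented by its probe set of highest mean, and limma was run over 12837 genes. The 9 lists held 85 genes, of which 68 were tested, 14 were under the filter and 3 were not analysed here. Of the 68, 4 rose and 1 fell, against 4.36% of all genes called, 2.59% higher and 1.78% lower. The calls were Col18a1, Agrn, Slc35d1 and Chpf, all higher, and Chst14, lower. The 63 others did not pass. In 9 of the 68 the ICN2 positive arrays all lay above, and in 24 all below, the ICN2 negative arrays, against 20.7% and 16.9% of all genes. The median difference was -0.11, against 0.02 over all genes. At an unadjusted p under 0.05 in limma, 9 of the 68 were higher and 18 lower. The shares over all probe sets tested were 14.4% and 9.90%, and shares over all genes were not counted. These shares stand beside the counts per list below. Leaving out ICN2 positive replicate 1 gave 12 calls, with 4 higher and 8 lower, and leaving out each of the others gave 1 to 3. The count was 24 with array weights, which give less influence to arrays that stand apart, with 10 higher and 14 lower. Of the genes described below, Hpse, Pxylp1, Ugp2, Ugdh and Vegfa were among those lower and Ndst3 among those higher.

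Among 13 tested core proteins, which carry the chains, 2 rose and 11 did not pass. Col18a1 read 6.13, 5.94 and 6.65 in ICN2 negative and 11.47, 11.53 and 11.39 in ICN2 positive arrays. Its log2 level rose by 5.23 ± 0.19 (37.5-fold, adjusted p = 5.92e-04 in limma), and both its probe sets were called. It was called on leaving out each array in turn. Agrn, the basement membrane proteoglycan agrin, read 8.77, 8.52 and 8.89 against 9.40, 9.68 and 9.65. It rose by 0.85 ± 0.13 (1.80-fold, adjusted p = 0.0314), a call that was kept without ICN2 positive replicate 1 (adjusted p = 0.0254) and lost when each of the others was left out (adjusted p up to 0.108). Hspg2, the third basement membrane heparan sulfate proteoglycan, known as perlecan, differed by -0.16 ± 0.10 with overlapping groups.

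The cell surface core proteins differed in sign, and limma with equal array weights and no intensity trend called none of them on all 6 arrays. An intensity trend called Sdc1, and array weights called Sdc1, Gpc3 and Tgfbr3 higher and Gpc1 and Sdc2 lower. The syndecan Sdc1 read 10.25, 10.60 and 10.56 against 11.78, 11.20 and 11.17, a difference of 0.92 ± 0.20 (adjusted p = 0.0645) that passed without ICN2 positive replicate 1 (0.72, adjusted p = 0.0454). Its 4 probe sets ranged from 0.02 to 1.16. The syndecan Sdc4 read 9.99, 8.18 and 6.11 against 5.25, 5.30 and 4.70. Of its ICN2 positive arrays only replicate 2 lay above the 40th percentile. The ICN2 negative arrays of Sdc4 were themselves far apart, and the difference was -3.01 ± 0.95 (adjusted p = 0.122). The glypican Gpc1 read 12.12, 12.31 and 12.52 against 8.94, 11.21 and 11.04, with ICN2 positive replicate 1 far below the rest. Its difference was -1.92 ± 0.62 (adjusted p = 0.125), and -1.20 without that array (adjusted p = 0.0192). The glypican Gpc4 differed by -1.43 ± 0.43 (adjusted p = 0.113). Gpc3, another glypican, overlapped at 0.42 ± 0.27 (adjusted p = 0.356) and passed, at 0.72, without replicate 1 (adjusted p = 0.039).

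**Figure D4:**
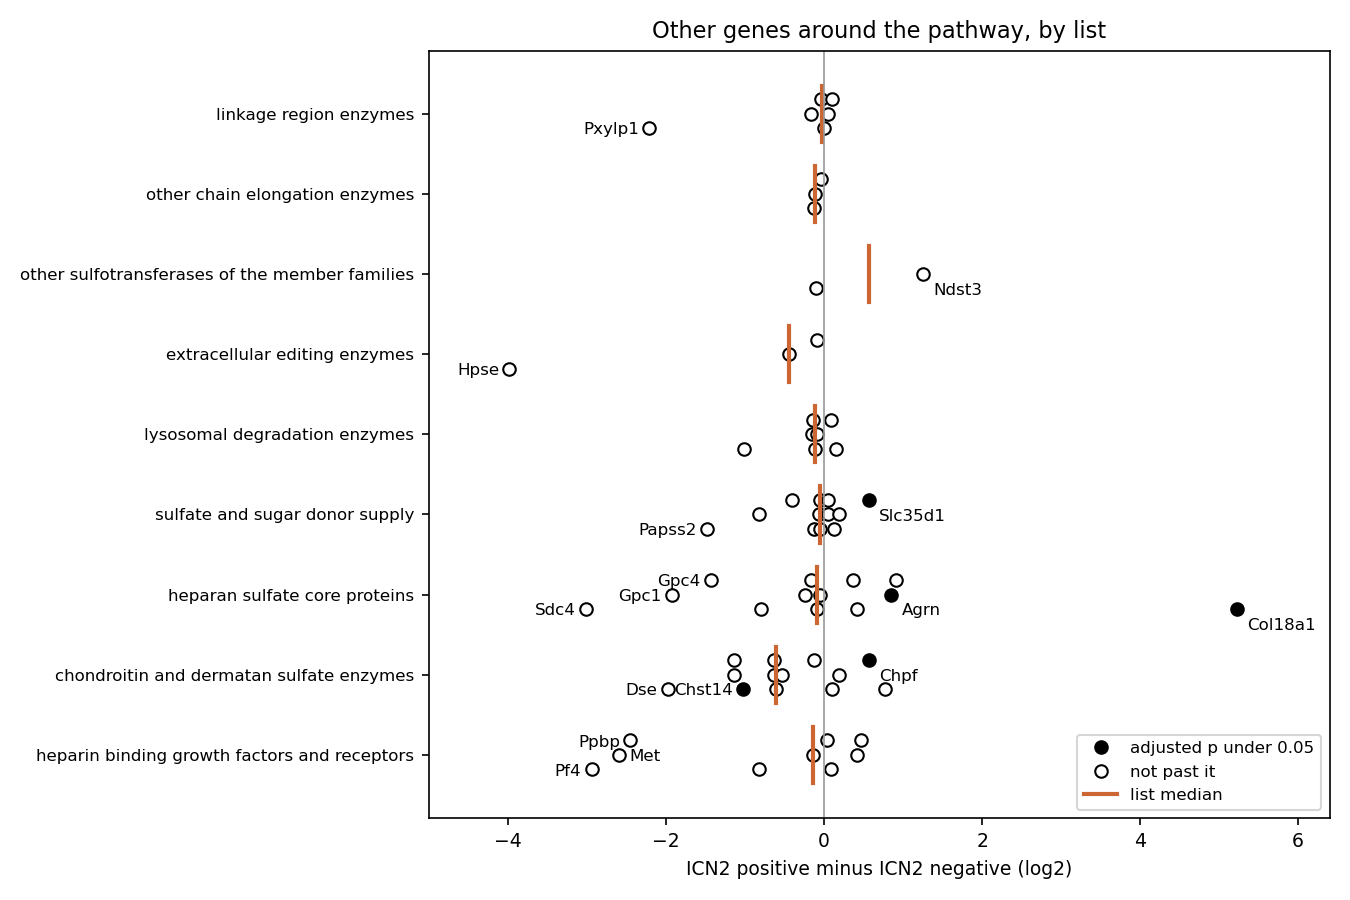
Difference between the groups (ICN2 positive minus ICN2 negative, log2) for the 68 tested genes of 9 lists, 1 point per gene, filled where the adjusted p in limma was under 0.05, with a vertical bar at each list's median. Col18a1 at 5.23 stands alone on the right, and the genes furthest to the left, such as Hpse at -3.98, did not pass the test.

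Of the 4 genes listed for editing chains outside the cell, 3 were tested and none passed in limma, with none higher and 1 lower at an unadjusted p under 0.05. Hpse, the heparanase that cuts the chains, read 10.87, 11.80 and 11.60 in ICN2 negative and 4.75, 8.96 and 8.61 in ICN2 positive arrays. All ICN2 positive arrays were lower, with a difference of -3.98 ± 1.16 (adjusted p = 0.107), and replicate 1 was under the 40th percentile. Without replicate 1 the difference was -2.64 ± 0.31 and passed (adjusted p = 0.0188). The 6-O-endosulfatase Sulf2, which removes the groups that Hs6st enzymes add, read 11.69, 11.82 and 11.79 against 10.85, 11.67 and 11.45, a difference of -0.44 ± 0.22 (adjusted p = 0.248). Without ICN2 positive replicate 1 it was -0.21 (adjusted p = 0.258). Its other tested probe set had -1.51. The related Sulf1 was under the filter.

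None of the 6 tested enzymes of the linkage region passed in limma, with none higher and 1 lower at an unadjusted p under 0.05. That 1 was Pxylp1, the phosphatase that acts on the linkage xylose, at 10.92, 11.27 and 11.38 against 7.61, 9.88 and 9.44. The difference was -2.21 ± 0.60 (adjusted p = 0.095), and -1.53 without ICN2 positive replicate 1 (adjusted p = 0.0237). The glucuronyltransferase gene B3gat3 differed by -0.16 ± 0.09, or -0.09 without that array, and the list median was -0.02. None of the 3 other chain elongation enzymes passed, also at an unadjusted p under 0.05. Extl3, which starts the chain, differed by -0.13 ± 0.07 and Extl2 by -0.12 ± 0.07.

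Of 8 other sulfotransferases of the member families, 5 were under the filter, 1 was not analysed here and 2 were tested, with no call and 1 higher at an unadjusted p under 0.05 in limma. Ndst3, a paralog of Ndst2, read 5.99, 5.20 and 5.14 against 6.39, 6.61 and 7.08, with no overlap and 1.25 ± 0.29 (adjusted p = 0.0721). Only 1 of its ICN2 negative arrays lay above the 40th percentile.

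Of 12 genes that supply sulfate and sugar donors, 1 rose and 11 did not pass. Slc35d1, a transporter of UDP sugars into the endoplasmic reticulum, read 8.80, 8.63 and 8.62 against 9.40, 9.09 and 9.26. It rose by 0.57 ± 0.11 (1.48-fold, adjusted p = 0.0481 in limma). The gene no longer passed once 1 array was left out, whichever it was (adjusted p = 0.0577 to 0.172). It passed in 4 of 11 other settings, and averaging its probe sets gave 0.37 (adjusted p = 0.156). Ugp2, which makes UDP-glucose, differed by -0.41 ± 0.12 (adjusted p = 0.114). Ugdh, which turns it into UDP-glucuronic acid, differed by -0.82 ± 0.27 (adjusted p = 0.125), and by -0.52 without ICN2 positive replicate 1, where it passed (adjusted p = 0.0493).

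Of 7 tested lysosomal enzymes that break the chains down, none passed in limma, with 1 higher and 1 lower at an unadjusted p under 0.05. Naglu, an N-acetylglucosaminidase, read 8.60, 9.06 and 8.90 against 7.49, 8.25 and 7.77, with -1.02 ± 0.22 (adjusted p = 0.0668). Naglu was called lower only with array weights, with the replicate block and without ICN2 positive replicate 2. Hgsnat, the acetyltransferase of the same route, differed by 0.16 ± 0.06 (adjusted p = 0.182).

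Chondroitin and dermatan sulfate chains grow on the same linkage region and compete for the same donors. Of 13 tested enzymes that build them, 1 rose, 1 fell and 11 did not pass, with a median of -0.61. At an unadjusted p under 0.05 in limma, 2 were higher and 7 lower, against 14.4% and 9.90% of all probe sets tested. The ICN2 positive arrays lay all above in 2 and all below in 8, against 20.7% and 16.9% of all genes. Chst14, the dermatan 4-O-sulfotransferase, read 8.08, 8.05 and 8.11 against 6.66, 7.14 and 7.38. The log2 level fell by 1.02 ± 0.19, which is 2.03-fold (adjusted p = 0.0456 in limma). The call held without ICN2 positive replicate 1 (adjusted p = 0.0189). It was lost when each of the others was left out (adjusted p = 0.0604 to 0.158) and with no filter (adjusted p = 0.0522). Chpf, a chondroitin polymerising factor, rose by 0.57 ± 0.10 (adjusted p = 0.041) from 5.37 ± 0.15 to 5.94 ± 0.08 (mean ± SD, n = 3), with 2 of 3 ICN2 negative arrays above the percentile. Chpf did not pass in any fit to 5 arrays (adjusted p = 0.0591 to 0.144). Dse, the dermatan sulfate epimerase, was under the percentile on all ICN2 positive arrays and at least 2.30-fold lower, at an adjusted p of 0.051. Dse thus entered the fit only through the ICN2 negative group, in which it is high. It was called lower with median centring, an intensity trend, array weights and the log2(value + 16) scale. The same held with probe set means, without _x_at or _s_at probe sets, and without ICN2 positive replicate 2. No call came with no filter, a second quantile normalization, robust variances, the replicate block or any other array left out.

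Heparin-binding growth factors and receptors held no call in 9 tested genes in limma, with none higher and 2 lower at an unadjusted p under 0.05. Vegfa, the vascular growth factor, differed by -0.83 ± 0.16 (adjusted p = 0.0557), and by -0.99 without ICN2 positive replicate 1, where it passed (adjusted p = 0.0176). Its other probe set differed by -0.06. Pf4, a platelet chemokine that binds heparin, differed by -2.94 ± 1.00 (adjusted p = 0.138). The growth factors Fgf1 and Fgf2 and the receptors Fgfr1 and Fgfr2 were under the filter.

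Markers of myeloid progenitors were lowest in ICN2 positive replicate 1, as were Hpse, Gpc1 and Pxylp1, picked after their values were seen. Other pathway genes with low ICN2 positive values were not. Vegfa read 6.88, 6.38 and 6.41 in ICN2 positive replicates 1, 2 and 3, and Sdc2 and Sdc4 were lowest in replicate 3. For 6 myeloid progenitor markers (Mpo, Elane, Prtn3, Ctsg, Cebpa and Csf1r), the median deviation from their own ICN2 negative means was -0.07 to 0.05 in ICN2 negative arrays. In ICN2 positive replicates 1, 2 and 3 it was -3.35, -0.47 and -0.61. All 6 had ICN2 positive values below every ICN2 negative value, against 16.9% of all genes. None of the 6 was called in limma, also at an unadjusted p under 0.05. The same median of 6 erythroid progenitor markers, among them Gata1 and Klf1, lay between -0.02 and 0.16 on all 6 arrays, with none called. Of 6 stromal and endothelial markers, Cdh5, Col3a1 and Lepr were under the filter, and Kdr, Pecam1 and Col1a1 were not called in limma, also at an unadjusted p under 0.05. Of 4 tested T cell markers none was called in limma. At an unadjusted p under 0.05, 2 of the 4 were higher, against 14.4% of all probe sets tested. The median deviation of the 4 ranged from -0.51 to 0.63 in ICN2 negative and from 0.47 to 2.03 in ICN2 positive arrays. The part of these cell types in the pathway values was not tested.

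**Figure D5:**
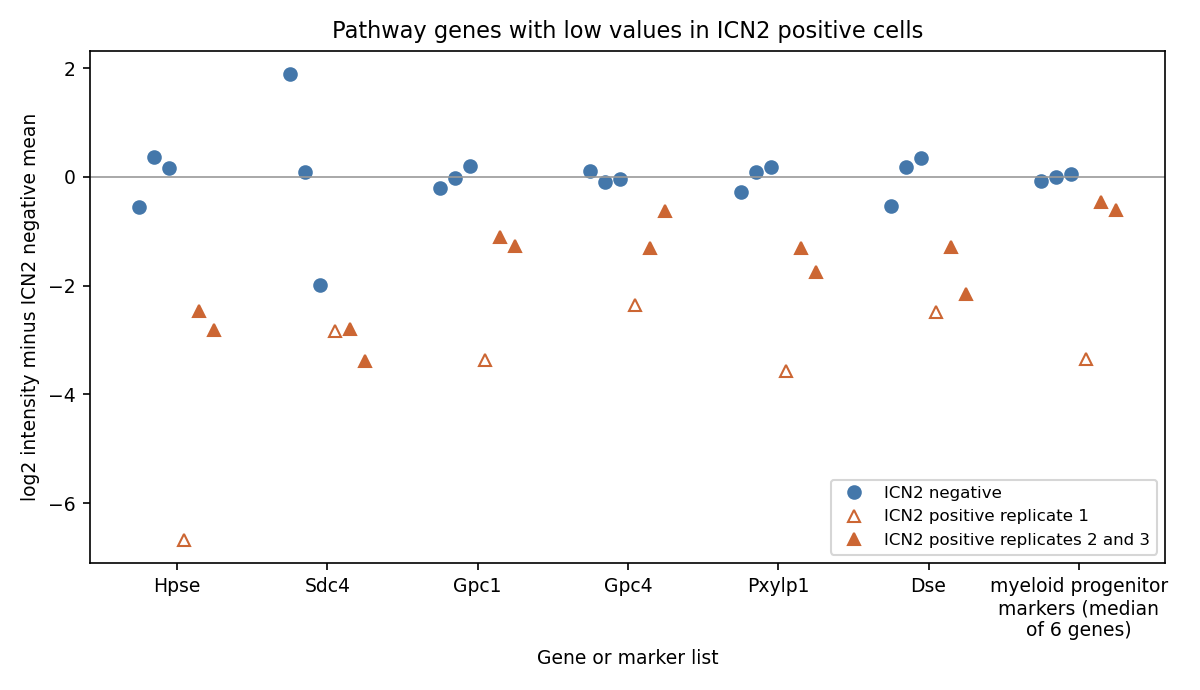
Log2 intensity minus the ICN2 negative mean for 6 pathway genes picked after their values were seen, and for the median of that quantity over 6 myeloid progenitor markers, with circles for ICN2 negative arrays, an open triangle for ICN2 positive replicate 1 and filled triangles for replicates 2 and 3. For Hpse, Gpc1, Gpc4, Pxylp1, Dse and the markers, replicate 1 is the lowest array, while Sdc4 spreads widely in the ICN2 negative group. The log2 intensity of Hpse in replicate 1, before the subtraction, was 4.75.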

How the data were processed

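The authors deposited linear intensity values for each probe set, made with RMA per the submitters' processing notes (version not given in the sources used here). RMA in general equalises array distributions by quantiles. Amplification and biotin labelling began with 5 ng of RNA per the labels. A change in total RNA per cell would not be seen, and no measured background was used here. Log2 was taken, and limma 3.58.1 in R 4.3.3 compared the genotypes with Benjamini-Hochberg adjustment at 0.05, over 27424 probe sets for the members and 12837 genes for the lists. Of 45101 probe sets, 34958 had 1 gene in the platform annotation, 932 had several and 9211 none; 34754 of the first matched the RefSeq gene table (GRCm38.p6).

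Where all arrays of a group were under the 40th percentile, the fold was taken against it and is given as "at least". Members and lists were chosen with earlier results of these data known. Named genes were all members, the called genes of each list (filled up to 2 by smallest p), and the 5 profiles nearest to Hs6st2. Sdc1, Sdc4, Gpc1, Gpc3, Gpc4, Hspg2, Dse and Ugdh were named after their values were seen. Alternatives covered filter, normalization, variance model, array weights, probe sets, replicate number and left-out arrays. The fit was tested on simulated data.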

Additional observations from a re-analysis of the deposited data

How the results depend on the processing

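No difference of the 23 member probe sets moved by more than the larger of its group SDs in 345 alternative values. Against the pooled SD 5 of them did: on the log2(value + 16) scale 1450047_at had 5.11, 1420938_at 1.39, 1420939_at 0.95 and Ext1 1458054_at 0.26, and with array weights Ext2 1447743_x_at had 0.05. Most of the 345 values could not have moved that far. Leaving out 1 of 3 arrays cannot shift a group mean by its SD. The filters, intensity trend, robust variances and replicate block leave the differences unchanged. A widely spread group also raises its own limit, as in Hs3st1, whose difference ran from 0.04 to 0.88 with 1 array left out. These values are therefore no test of stability. Counts of calls moved as well. With 1 array left out, 1 to 2 member probe sets, 1 to 12 other pathway genes and 99 to 768 of all genes were called, against 3, 5 and 560. Without ICN2 positive replicate 1 there were 12 pathway and 768 gene calls, and without ICN2 negative replicate 2 there were 1 and 99. With no filter 3 other pathway genes were called. Array weights gave 24 pathway genes and 3262 of all genes, and an intensity trend gave 847 of all genes. With the replicate number as a block, 1 member probe set (1450047_at, with Ext1 and 1420938_at lost), 3 pathway genes and 340 of all genes were called, and of the 5 pathway genes Col18a1 alone kept its call. Replicates share only a number: deviations of same-numbered arrays correlated at 0.18, 0.10 and 0.09, and not every array matched its own number best. The cause of these shifts was not tested. The number of arrays, and dim probe sets near the 40th percentile, limit what can be seen.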
